A study of Homo sapiens with 2 samples.

Results

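Aminoacyl-tRNA synthetases are the enzymes that load amino acids onto their tRNAs. Genes of 35 such enzymes or enzyme subunits, picked by symbol from a list of names, were followed among the 46427 genes of the deposited count table. Of these, 19 encode the enzymes of the cytosol and 16 the enzymes of mitochondria. All 35 reached 20 counts summed over both libraries, the minimum for a comparison, which 13665 genes of the table met.

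Cells of NK92, an established natural killer cell line from a human NK cell malignancy, were exposed to PPMX-T003, an antibody that blocks transferrin receptor 1 and with it the uptake of transferrin-bound iron. Both dishes were set up in new medium from the same culture, which had a pre-incubation of 18 h. The PPMX-T003 dish received 10 µg/mL of the antibody for 6 h and the control dish received none. Polyadenylated RNA of each dish gave 1 library, with 46766416 counts for the control and 43178462 for PPMX-T003, and 17690 and 17650 genes detected. The deposited columns of the control carry 0h in their names and those of PPMX-T003 carry 6h. The 0h columns were read as the dish without antibody, which by the published methods stayed in culture for the same 6 h. The counts do not show when it was harvested, and with a harvest at 0 h, time in culture and exposure cannot be told apart. With 1 library per condition there was no replicate check and no p-value is given. The 95% Clopper-Pearson intervals below cover counting error only and compare these libraries, not the conditions.

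Natural killer cell genes were present in both libraries. All 12 listed markers passed the count minimum, with 226683 summed counts in the control and 230465 with PPMX-T003. IL2RB took the most counts of them, at 56260 and 55986, followed by NKG7, a granule membrane protein, at 50704 and 52091. The median log2 fold change of the 12 markers was 0.13, with the interval above 0 for 8 and below 0 for 1. Among genes with at least 5000 counts, as 9 of the 12 had, 31.4% lay above and 38.5% below. After removal of a fit on the length and GC content of transcripts, described further on, that median was 0.048. Among markers of other cell types, MS4A1, CD3D, ALB, EPCAM, HBB and COL1A1 were at 0 counts in both libraries. LYZ had 2 and 0 counts and CD14 had 0 and 7. CD3E was the exception with 19080 and 18942 counts, while its partner chain CD3D was at 0. In RNA from whole dishes, fewer cells of a type and less RNA per cell cannot be told apart.

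Each synthetase recognises an amino acid and the matching tRNAs, spends ATP to activate the amino acid and passes the charged tRNA to an elongation factor. The cytosol and the mitochondrion have separate sets of these enzymes, both encoded in the nucleus, and GARS1 and KARS1 serve both compartments from the same gene. When amino acids run short or eIF2α is phosphorylated by another stress kinase, the transcription factor ATF4 is known to raise many cytosolic synthetase genes through C/EBP-ATF response elements, while the mitochondrial set is not generally described as an ATF4 target.

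To show the promoter letters on which that known regulation rests, the core TTGCATCA of this element was searched on both strands in 300 bases around each annotated start site, from 250 before to 50 after. RefSeq promoters in build GRCh38.p14 were matched for 30 of the 35 genes, and those of YARS1, VARS1, LARS1, AARS2 and VARS2 were not used here. The core was found in 6 of 16 cytosolic promoters (37.5%), in 0 of 14 mitochondrial promoters and in 295 of the 27305 genes with a promoter (1.08%). A looser form, TGATGNAA with N for any base, includes the reverse complement of the core, so its matches overlap with those of the core. It was found in 7 of 16 cytosolic promoters, in 1 of 14 mitochondrial promoters and in 4.46% of all genes. The 8 matches among the synthetases are printed 5′ to 3′ on the strand of the gene, with the matching letters in capitals. The TARS1 and NARS1 matches begin 2 and 14 bases after the start site used and thus lie in the transcribed part. Those of CARS1 and MARS1 begin 2 and 4 bases before it and span it, and the others lie in front of it. These positions depend on the start site, of which the 27305 genes have 35116. With gene starts annotated at chr5:33440696 for TARS1 and chr7:30594735 for GARS1, both matches lie further inside the gene, and that of GARS1 is not in front.
TARS1, chr5:33440941-33440984, + strand: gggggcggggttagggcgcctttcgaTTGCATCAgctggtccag
IARS1, chr9:92293678-92293736, - strand: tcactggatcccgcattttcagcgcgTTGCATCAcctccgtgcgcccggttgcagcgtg
CARS1, chr11:3057404-3057451, - strand: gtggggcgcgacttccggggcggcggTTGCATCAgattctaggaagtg
MARS1, chr12:57488038-57488087, + strand: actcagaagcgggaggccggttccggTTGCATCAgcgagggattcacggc
AARS1, chr16:70289660-70289719, - strand: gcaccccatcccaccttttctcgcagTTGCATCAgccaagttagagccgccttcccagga
NARS1, chr18:57621815-57621848, - strand: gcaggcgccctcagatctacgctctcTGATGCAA
GARS1, looser form, chr7:30594819-30594878, + strand: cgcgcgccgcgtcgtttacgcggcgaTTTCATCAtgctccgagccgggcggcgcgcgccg
YARS2, looser form, chr12:32756061-32756120, - strand: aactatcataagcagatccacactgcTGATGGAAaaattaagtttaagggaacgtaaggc
In CARS1, IARS1, MARS1 and GARS1 the match begins within 33 bases of the start site, whereas in AARS1 and YARS2 it begins 187 and 197 bases in front of it. A match is a description of the letters and not of binding.

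The question put to the counts was whether cytosolic and mitochondrial enzymes moved alike after exposure. Cytosolic genes had a median log2 fold change of -0.048 (PPMX-T003 against control, n = 19 genes), and mitochondrial genes one of 0.072 (n = 16 genes), against -0.0020 over all genes tested. The difference between these medians was -0.12. On the deposited TPM scale, on which genes with at least 5000 counts lay lower by a median difference of -0.054, the cytosolic median was -0.082 and the mitochondrial median 0. Values were negative for 13 of 19 cytosolic genes and positive for 11 of 16 mitochondrial genes. Changes of this size were small: FARS2 alone among the 35 passed a 1.2-fold threshold, upwards, and none passed it downwards. FARS2 did so barely, and it fell short of that threshold under library size or median of ratios scaling, on TPM (0.23) and after the fit on length and GC content (0.21). The upward threshold was passed by 12.2% of all genes tested and the downward one by 12.4%, but by fewer genes at the depth of the family. Of 6443 genes with 800 to 10000 counts, 264 (4.1%) passed it upwards and 379 downwards. Of 4273 genes with at least 5000 counts, 45 (1.05%) passed it upwards and 171 downwards.

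Because deeply counted genes have narrow intervals, each set was read against genes of like depth. The interval lay below 0 for 10 of 19 cytosolic genes (52.6%) and above 0 for 3 (15.8%). Among genes with at least 5000 counts, as all cytosolic members had, these shares were 38.5% and 31.4%. For mitochondrial genes the interval lay below 0 for 3 of 16 (18.8%) and above 0 for 8 (50%). Genes with 800 to 10000 counts, the range that holds all mitochondrial members, gave 28.5% and 24.6%. Taking the 35 genes as 1 family, 13 (37.1%) lay below 0 and 11 (31.4%) above, close to the shares at high depth and higher than the 23.9% and 21.8% of all genes tested. So the compartments leaned in opposite directions around a family that as a whole had a median of -0.024. The sign of that family median was not stable. It was 0.016 after the fit on length and GC content described further on, and -0.019 when that fit used the longest transcript.

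**Figure D1:**
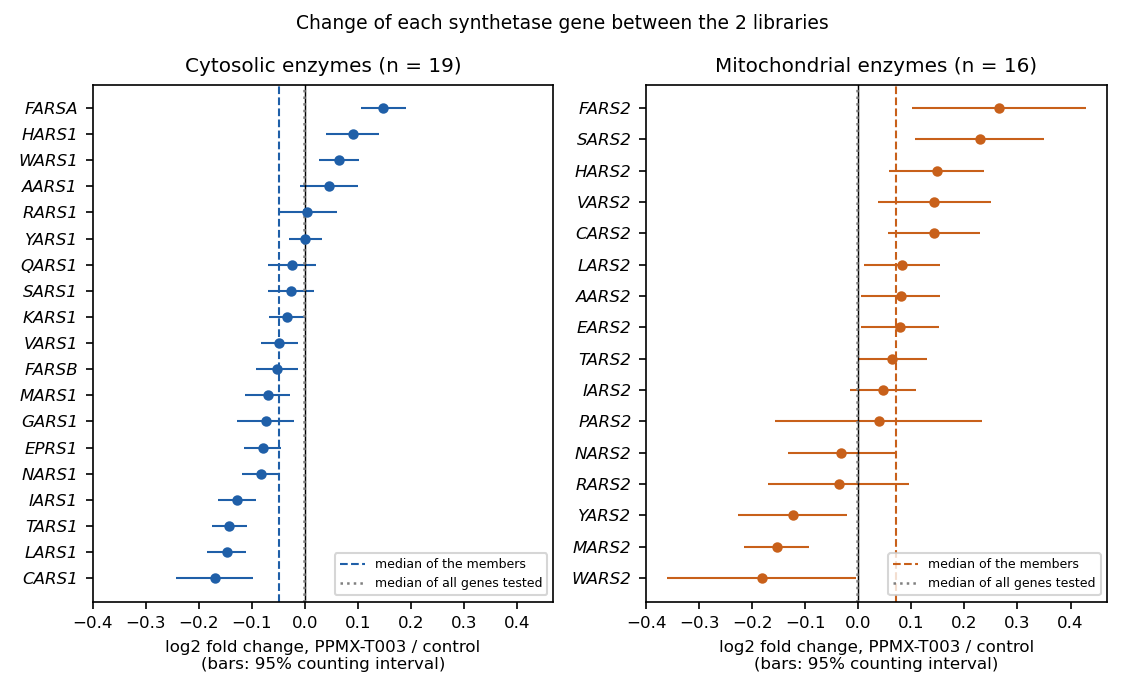
Log2 fold change (x axis) of the 19 cytosolic (left) and 16 mitochondrial (right) synthetase genes (y axis), with points for the genes, bars for the 95% counting interval, dashed lines for the median of each set and dotted lines for that of all genes tested. The cytosolic median lies at -0.048 and the mitochondrial median at 0.072, and FARS2 has the highest value at 0.26.

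Summed over genes, the cytosolic enzymes took 203055 counts in the control and 181630 with PPMX-T003. Their share of the library went from 0.434% (95% interval 0.432 to 0.436) to 0.421% (0.419 to 0.423), a log2 fold change of -0.044 (-0.053 to -0.034). Mitochondrial enzymes took 34538 and 32764 counts, and their share went from 0.0739% (0.0731 to 0.0746) to 0.0759% (0.0751 to 0.0767), a log2 fold change of 0.041 (0.019 to 0.063). In the plot of changes by gene, most genes of each set lie on the same side of 0 as their sum.

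Among cytosolic genes, LARS1, TARS1 and CARS1 lay furthest below 0 by the interval bound nearest to it. LARS1, the leucyl enzyme and a known leucine sensor of mTORC1, had 13514 counts in the control and 11248 with PPMX-T003 (log2 fold change -0.15, -0.18 to -0.11). TARS1, the threonyl enzyme, had 16016 and 13376 counts (-0.14, -0.18 to -0.11). CARS1, the cysteinyl enzyme, had 3417 and 2800 counts (-0.17, -0.24 to -0.098). All 3 were lower in the exposed library by less than 1.2-fold, and all 3 are generally described as ATF4 targets. IARS1, which charges isoleucine, followed with 14167 and 11953 counts (-0.13, -0.16 to -0.093). The other 6 with intervals below 0 were NARS1, EPRS1, GARS1, MARS1, FARSB and VARS1, for asparagine, glutamate and proline, glycine, methionine, phenylalanine and valine. Their values ran from -0.083 for NARS1 to -0.048 for VARS1.

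FARSA, HARS1 and WARS1 were the cytosolic genes with intervals above 0. FARSA, the catalytic α subunit of the phenylalanyl enzyme, had 8744 counts in the control and 8931 with PPMX-T003 (log2 fold change 0.15, 0.11 to 0.19). HARS1, the histidyl enzyme, had 6549 and 6426 counts (0.090, 0.040 to 0.14). WARS1, the tryptophanyl enzyme, which interferon γ is known to induce, had 11726 and 11308 counts (0.065, 0.027 to 0.10). HARS1 and WARS1 had fewer reads in the exposed library, which was the smaller one, but a larger share of it. Intervals of the remaining 6, KARS1, SARS1, QARS1, YARS1, RARS1 and AARS1, held 0, with values from -0.033 to 0.045. YARS1 and RARS1 lay so near 0, at 0.00098 and 0.0042, that their sign was negative when the libraries were scaled by the median of ratios.

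FARSA and FARSB make the α and β subunits of the same tetramer, yet their mRNAs did not move together. FARSB had 10889 and 9686 counts (-0.052, -0.091 to -0.012). Of the reads of both subunits, FARSA held 44.5% in the control (95% interval 43.8 to 45.2) and 48.0% with PPMX-T003 (47.3 to 48.7), so the intervals of the libraries did not overlap. The transcripts of these genes differ in base composition, with 61.6% GC for FARSA and 41.6% for FARSB. After removal of a fit on the length and GC content of transcripts, made over all well counted genes and applied to the whole family further on, the values were 0.036 for FARSA and 0.053 for FARSB.

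Mitochondrial genes with the highest values were SARS2, FARS2 and HARS2. SARS2, the mitochondrial seryl enzyme, had 1057 counts in the control and 1142 with PPMX-T003 (log2 fold change 0.23, 0.11 to 0.35). FARS2, the mitochondrial phenylalanyl enzyme, which works as a monomer, had 583 and 646 counts (0.26, 0.10 to 0.43). HARS2, the mitochondrial histidyl enzyme, had 2002 and 2045 counts (0.15, 0.058 to 0.24). FARS2 rests on some of the lowest counts of the family, its value lies at the 1.2-fold threshold, and its interval reaches far to both sides of it. SARS2 is uncertain for another reason: 61.3% of the 50-base stretches in its transcripts are shared with an annotated readthrough gene that spans it. CARS2, VARS2, LARS2, AARS2 and EARS2 also had intervals above 0, with values from 0.079 for EARS2 to 0.14 for VARS2.

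WARS2, MARS2 and YARS2 were the mitochondrial genes with intervals below 0. MARS2, which charges the methionyl tRNA used for both initiation and elongation in mitochondria, had 4628 counts in the control and 3834 with PPMX-T003 (log2 fold change -0.15, -0.22 to -0.092). YARS2, the tyrosyl enzyme, had 1672 and 1415 counts (-0.12, -0.23 to -0.021). WARS2, the tryptophanyl enzyme, had 581 and 472 counts (-0.18, -0.36 to -0.0048). MARS2 was the most abundant mitochondrial synthetase mRNA of the control library per length and WARS2 was near the lowest, so this direction was seen at both ends of the range. The intervals of RARS2, NARS2, PARS2, IARS2 and TARS2 held 0, with values from -0.037 to 0.064.

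Levels can be compared between genes only per length, for which the deposited TPM values were used, a measure of transcripts scaled to gene length and library total that the authors gave as whole numbers. The median TPM in the control was 161 for cytosolic genes (60 to 340) and 31.5 for mitochondrial genes (9 to 73). KARS1 had the highest level, with a TPM of 340 in the control and 320 with PPMX-T003, followed by YARS1 with 324 and 315. At the low end of the cytosolic set, CARS1 had a TPM of 60 and 51 and AARS1 of 78 and 78. These lie beside the top of the mitochondrial set, where MARS2 had a TPM of 73 and 63 and TARS2 of 70 and 70. PARS2, the prolyl enzyme, had the lowest level in the control with a TPM of 9 in both libraries.

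For 13 amino acids each compartment has an enzyme of its own made from 1 gene. The cytosolic TPM in the control was a median of 4.25 times that of the mitochondrial partner, from 1.18 times for cysteine (CARS1 and CARS2) to 21.1 times for tryptophan (WARS1 and WARS2). With PPMX-T003 the ratio for cysteine was 0.962, with a TPM of 51 for CARS1 and 53 for CARS2, and the ratio for tryptophan was 26.8. In 9 of the 13 pairs the log2 fold change of the cytosolic gene lay below that of its partner, and the median difference was -0.058. The cysteine pair had the widest gap, with -0.17 for CARS1 and 0.14 for CARS2. The 4 pairs in the opposite order were those of methionine, arginine, tryptophan and tyrosine, where WARS1 stood at 0.065 and WARS2 at -0.18. EPRS1, which joins glutamyl and prolyl enzymes in the same chain, stood at -0.080, against 0.079 for EARS2 and 0.038 for PARS2. Genes are not replicates, so these counts describe the family in this pair of libraries.

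**Figure D2:**
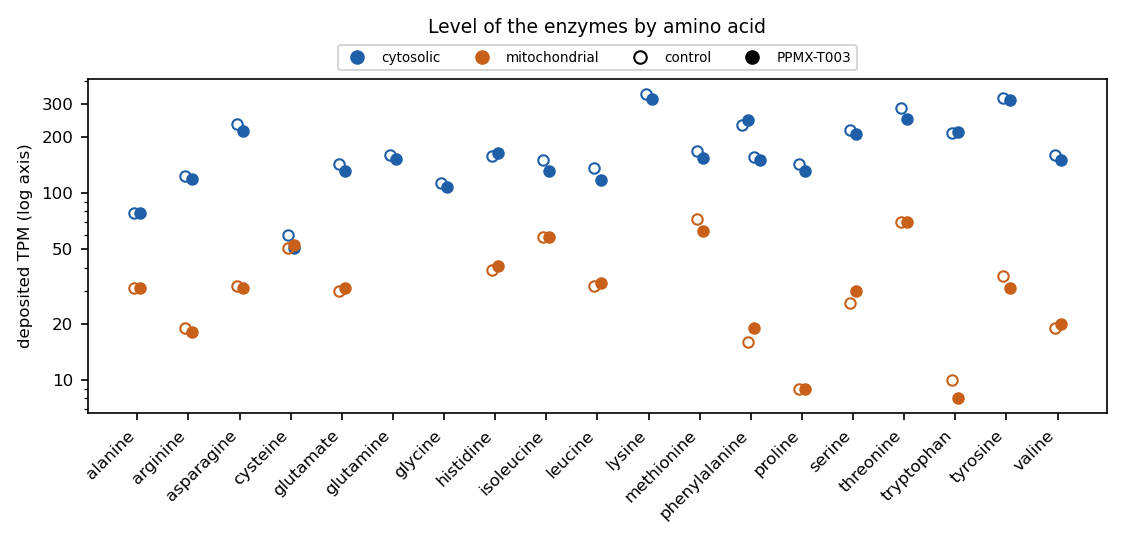
Deposited TPM (y axis, log scale) of cytosolic (blue) and mitochondrial (orange) synthetase genes by amino acid (x axis), with open circles for the control and filled circles for PPMX-T003, EPRS1 shown under both of its amino acids and FARSA (left) and FARSB (right) side by side. The cytosolic level is above the mitochondrial level in every pair of the control, and for cysteine the circles nearly meet at 60 and 51.

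Base composition moved with the fold changes across the transcriptome of these libraries. When genes with at least 5000 counts were ordered by the GC content of their transcripts and divided into 5 groups of like size, the median log2 fold change went from -0.12 in the group of lowest GC (32.0% to 42.0%) through -0.066, -0.019 and 0.047 to 0.093 in the group of highest GC (57.2% to 71.9%). The synthetase sets had similar GC content, with medians of 52.0% for cytosolic and 50.9% for mitochondrial genes. In 8 of the 13 pairs the cytosolic gene had the higher GC content. Within the group of highest GC, the 3 cytosolic genes had a median of -0.048 and the 3 mitochondrial genes one of 0.14. In the next group (51.3% to 57.2%), 7 cytosolic genes had a median of -0.024 and 5 mitochondrial genes one of 0.079. In the 3 groups of lower GC the medians had the same sign. From the middle group downwards they were 0.0042 for 3 cytosolic and 0.0097 for 4 mitochondrial genes, -0.13 for 5 and -0.032 for 3, and -0.052 and -0.037 for 1 gene each.

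A robust linear fit of the log2 fold change on the length and GC content of the transcripts, made over 9949 genes, was then removed. The cytosolic median became -0.033 and the mitochondrial median 0.044, and the cytosolic gene lay below its partner in 11 of the 13 pairs. Each gene was also represented by its longest transcript, coding or not, in place of the median over its coding transcripts. The compartment medians were then -0.058 and 0.037, and the count of pairs was 8 of 13. The order within pairs thus depends on the transcript chosen. The fit moved some members far. QARS1 went from -0.024 to -0.11 and MARS1 from -0.070 to -0.14, or to -0.089 and -0.11 with the longest transcript. GARS1 went from -0.074 to -0.17 and VARS1 from -0.048 to -0.19, with 60.4% and 62.6% GC, but only to -0.094 and -0.14 with the longest transcript. EPRS1, at 42.5% GC, went from -0.080 to 0.023 and FARSB from -0.052 to 0.053, and with the longest transcript they stood near 0 at -0.0086 and 0.0014, so the direction of both depends on this step and that of EPRS1 also on the transcript chosen. CARS1 was at -0.18 and TARS1 at -0.13, or at -0.16 and -0.086 with the longest transcript, while LARS1 and IARS1, at 42.2% and 43.6% GC, went to -0.054 and -0.033, or to -0.067 and -0.066. Among mitochondrial genes the members given in full above kept their sign but not all their size, while RARS2 turned to 0.029 and PARS2 turned to -0.032 with the longest transcript only. FARS2 was at 0.21 and HARS2 at 0.16, SARS2 fell from 0.23 to 0.12 (0.093 with the longest transcript), MARS2 and YARS2 were at -0.12 and -0.11, and WARS2 went from -0.18 to -0.093 (-0.15 with the longest transcript). Why base composition moved with exposure was not tested.

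**Figure D3:**
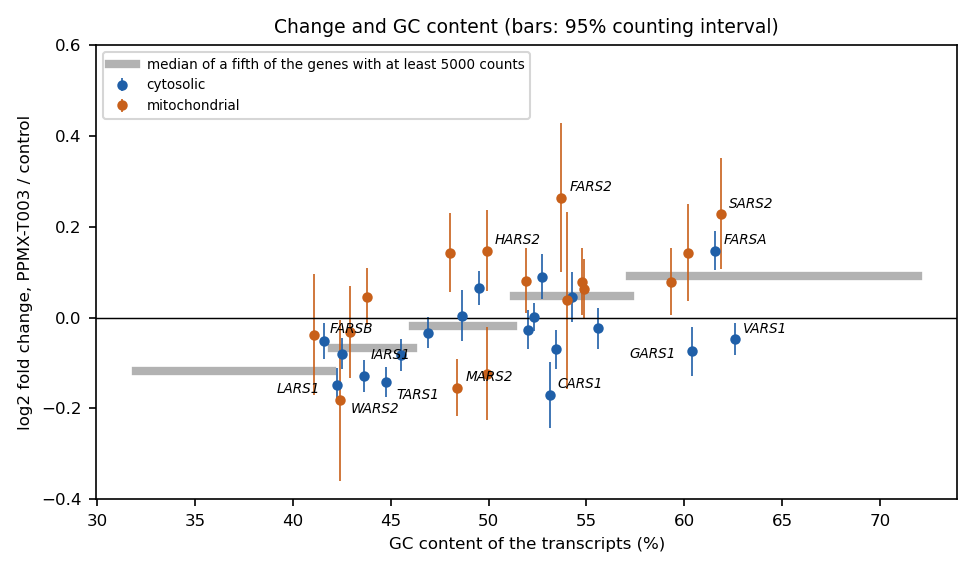
Log2 fold change (y axis) of cytosolic (blue) and mitochondrial (orange) synthetase genes against the GC content of their transcripts in percent (x axis), with bars for the 95% counting interval and grey lines for the median of 5 groups of genes with at least 5000 counts. Grey medians run from -0.12 at low GC to 0.093 at high GC, and GARS1 and VARS1 lie below the grey line at their GC content.

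Cytosolic genes were also grouped by what they are known for. The 13 generally described as ATF4 targets (AARS1, CARS1, EPRS1, GARS1, IARS1, LARS1, MARS1, NARS1, SARS1, TARS1, VARS1, WARS1 and YARS1) had a median log2 fold change of -0.074. The interval lay below 0 for 9 of them and above 0 for WARS1, where 38.5% and 31.4% of the genes with at least 5000 counts lay, and the same shares stand beside the other groupings of cytosolic genes below. The 6 others (FARSA, FARSB, HARS1, KARS1, QARS1 and RARS1) had a median of -0.0098, with FARSB below 0 and FARSA and HARS1 above. The sign of that smaller median was not stable, and it was 0.018 after the fit on length and GC content, whereas that of the ATF4 targets was -0.054.

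In mammalian cells a number of cytosolic synthetases are held together in the multisynthetase complex by the scaffold proteins AIMP1, AIMP2 and EEF1E1. The 7 members in this complex (EPRS1, IARS1, KARS1, LARS1, MARS1, QARS1 and RARS1) had a median of -0.070, with 4 intervals below 0 and 0 above. The 12 cytosolic members outside it had a median of -0.037, with 6 below and 3 above. The complex members have a low median GC content of 46.9%, and after the fit on length and GC content the medians were -0.033 and -0.025, or -0.066 and -0.057 with the longest transcript. AIMP2, the scaffold core, had 2180 and 2303 counts (0.20, 0.11 to 0.28). AIMP1 had 3999 and 3510 counts (-0.071, -0.14 to -0.0051), and EEF1E1 4078 and 3723 (-0.014, -0.079 to 0.050). The scaffold genes had 1 interval on each side of 0 and 1 that held it. After the fit AIMP2 stood at 0.16 (0.096 with the longest transcript), and AIMP1 and EEF1E1 turned positive, at 0.049 and 0.026, but with the longest transcript they stood at 0.0028 and -0.011, so the direction of neither is stable.

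LAT1, the carrier of large neutral amino acids, is made of SLC7A5 and its partner SLC3A2. Enzymes for the amino acids it carries (FARSA, FARSB, HARS1, IARS1, LARS1, MARS1, VARS1, WARS1 and YARS1) had a median of -0.048, with 5 intervals below 0 and 3 above. The 10 other cytosolic genes had a median of -0.054, with 5 below and 0 above. SLC7A5 had 8733 counts in the control and 7634 with PPMX-T003 (-0.077, -0.12 to -0.032), and SLC3A2 had 8301 and 7942 (0.053, 0.0089 to 0.098). After the fit on length and GC content SLC7A5 stood at -0.13 and SLC3A2 turned to -0.028, or at -0.15 and -0.047 with the longest transcript. The medians of this division were -0.0092 for the substrates and -0.064 for the others after the fit, and -0.058 and -0.072 with the longest transcript, so a gap between them was not stable. The 3 substrates with intervals above 0 are 33.3% of their group, near the 31.4% of genes with at least 5000 counts.

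Synthetases fall into class I and class II by the fold of their catalytic domain. In class I, to which EPRS1 was assigned by its glutamyl part, the median was -0.059 for 10 cytosolic and 0.046 for 9 mitochondrial genes. In class II it was -0.033 for 9 cytosolic and 0.080 for 7 mitochondrial genes. The cytosolic median was the lower one in both classes.

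Promoter letters were set beside the fold changes. The 6 cytosolic genes with the TTGCATCA core printed above had a median log2 fold change of -0.11, and the interval lay below 0 for all but AARS1. The 10 cytosolic genes whose promoter lacked the core had a median of -0.025, with 3 intervals below 0. After the fit on length and GC content these medians were -0.11 and 0.012. All 6 genes with the core are among the ATF4 targets, of which 10 had a promoter. The 4 of these without the core had a median of -0.050, with 2 intervals below 0, and of -0.0085 after the fit. With the longest transcript the medians were -0.076 with the core and -0.051 without it among these targets, so the size of this gap depends on the transcript chosen. Over all tested genes with a promoter, 71 with the core had a median of -0.045, with 24 intervals below 0, and 9730 without it a median of -0.0060, with 2536 below 0. AARS1, whose match lies 187 bases in front of the start site, was the core-bearing gene with a positive value (0.045, -0.0093 to 0.10). YARS2, the mitochondrial gene with the looser match, was among the 3 mitochondrial genes with an interval below 0.

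**Figure D4:**
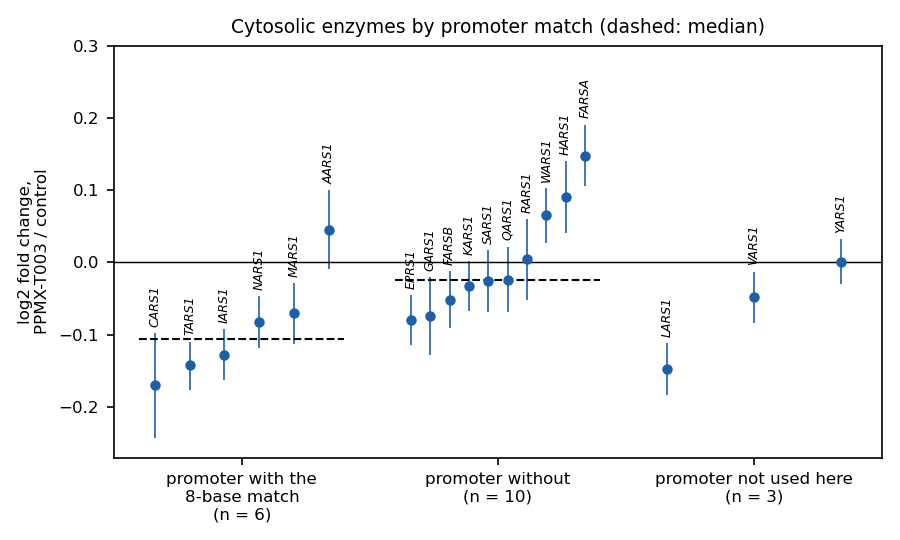
Log2 fold change (y axis) of the cytosolic synthetase genes with bars for the 95% counting interval, grouped by whether the promoter holds the 8-base core on either strand (x axis), with dashed lines for the median of 6 genes with it and 10 without it. Medians are -0.11 and -0.025, and 3 genes whose promoter was not used here stand at the right.

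HARS1 and HARS2 lie head to head on chromosome 5 and are transcribed in opposite directions from neighbouring start sites. Both had intervals above 0, and the DNA between their start sites is printed because it is shared by this pair of a cytosolic and a mitochondrial enzyme. It spans 84 bases with 59.5% GC (RefSeq, GRCh38.p14, strand of HARS2, in lower case because no motif is marked).
HARS1 to HARS2, chr5:140691371-140691454, + strand: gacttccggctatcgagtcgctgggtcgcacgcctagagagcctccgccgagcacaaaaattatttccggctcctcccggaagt
Of the reads of both genes, HARS1 held 76.6% in the control (95% interval 75.7 to 77.5) and 75.9% with PPMX-T003 (74.9 to 76.8). These intervals overlap, so a shift between the 2 genes of this locus was not detectable at this depth. Neither promoter held the core or the looser form.

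ATF4 itself and the kinases above it were examined next, since they are known to control the cytosolic set. ATF4 mRNA had 16297 counts in the control and 14121 with PPMX-T003 (log2 fold change -0.089, -0.12 to -0.057). EIF2AK1, the eIF2α kinase activated by heme shortage, had 6302 and 5814 counts (0.00098, -0.051 to 0.053). EIF2AK4, the kinase that senses uncharged tRNA, was listed at 0 counts in both libraries, which allows up to 3 counts in each. EIF2AK2, the kinase activated by double-stranded RNA, had 9781 and 6818 counts (-0.40, -0.45 to -0.36). After the fit on length and GC content ATF4 stood at -0.13 and EIF2AK2 at -0.32, or at -0.19 and -0.25 with the longest transcript. Of the 6 tested genes in this list, ATF4 and EIF2AK2 had intervals below 0 and 0 had one above, against 38.5% and 31.4% of the genes with at least 5000 counts, as 5 of the 6 had. ATF4 is mainly controlled at translation, which counts of mRNA do not measure.

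Outside the synthetases, 17 of 20 listed ATF4 targets were tested, and PHGDH, CHAC1 and VLDLR were at 0 counts in both libraries. Their median was -0.044, or -0.082 after the fit on length and GC content and -0.090 with the longest transcript. They had 7 intervals below 0 (41.2%) and 3 above (17.6%), against 23.9% and 21.8% of all genes tested. Among genes with at least 5000 counts, as 8 of the 17 had, 38.5% lay below 0 and 31.4% above. For genes with 800 to 10000 counts these shares were 28.5% and 24.6%. ASNS, asparagine synthetase, had 107 and 25 counts (-1.90, -2.67 to -1.34), but the table lists a readthrough gene that spans it, CZ1P-ASNS, with 29 and 124 counts (2.14, 1.62 to 2.85). The sum of both rows was 136 and 149 counts (0.25, -0.096 to 0.60), so no fall of ASNS can be read from its own row. With that sum in place of ASNS the median of the targets was -0.026 and 6 intervals lay below 0. SLC7A11, the cystine carrier, had 1460 and 892 counts (-0.59, -0.72 to -0.47), and SLC38A2 had 3912 and 2481 (-0.54, -0.61 to -0.47). PSAT1 and CEBPB also had intervals below 0, with values of -0.25 and -0.17. At the other end, ATF5 had 1558 and 1801 counts (0.33, 0.23 to 0.43) and DDIT3 had 536 and 561 (0.18, 0.0097 to 0.36). After the fit SLC7A11 stood at -0.39, ATF5 at 0.18 and DDIT3 at 0.15, or at -0.41, 0.20 and 0.086 with the longest transcript. SLC38A2, PSAT1 and CEBPB stood at -0.41, -0.20 and -0.31, or at -0.43, -0.24 and -0.35 with the longest transcript. The targets outside the synthetases moved in both directions and over a wider range than the 13 synthetases of the same regulation, which ran from -0.17 to 0.065.

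Because WARS1 is known to respond to interferon γ, a list of 12 genes induced by that cytokine was set beside it, of which 10 were tested. The interval lay below 0 for 3 and above 0 for 2, with a median of -0.015. Among genes with at least 5000 counts, as 8 of the 10 had, 38.5% lay below 0 and 31.4% above. IRF1 had 8716 and 9227 counts (0.20, 0.16 to 0.24), and GBP4 had 13062 and 10747 counts (-0.16, -0.20 to -0.13). GBP1 also lay below 0, at -0.15, and PSMB9 above it, at 0.17. The value of WARS1, 0.065, lay between these. After the fit on length and GC content GBP4 stood at -0.037, GBP1 at -0.061, PSMB9 at 0.087, IRF1 at 0.12 and WARS1 at 0.025. With the longest transcript they stood at -0.067, -0.11, 0.17, 0.20 and 0.033, so how far the fit moves them depends on the transcript chosen.

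Further genes of tRNA charging were not part of the 35. Among 3 of them, PSTK, the kinase on the way to selenocysteinyl-tRNA, had 242 counts in the control and 180 with PPMX-T003 (-0.31, -0.60 to -0.025), and the intervals of TARS3 and SEPSECS held 0.

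The proteins that take over the charged tRNA were compared by compartment as well. All 4 listed subunits of the cytosolic elongation factor 1 (EEF1A1, EEF1B2, EEF1D and EEF1G) had intervals above 0, with a median of 0.086, against 31.4% of the genes with at least 5000 counts, and their deep counts make these intervals narrow. EEF1A1, which carries aminoacyl-tRNA to the ribosome, had 392498 and 383384 counts (0.083, 0.077 to 0.090), and EEF1D, of the exchange factor, had 9680 and 9569 (0.10, 0.060 to 0.14). After the fit on length and GC content their median was 0.042, or 0.0090 with the longest transcript, EEF1D turned to -0.046 (0.015 with the longest transcript) and EEF1A1 rose to 0.11 (0.12), so these genes did not move alike under this step. Of 6 mitochondrial genes for formation of glutaminyl-tRNA, formylation and delivery, 2 had intervals above 0, 1 below and 3 held it. Their median was 0.077. Over all genes tested 21.8% lay above and 23.9% below, and over genes with 800 to 10000 counts 24.6% and 28.5%. TUFM, the mitochondrial elongation factor Tu, had 19036 and 18911 counts (0.11, 0.079 to 0.14), and GATB had 1078 and 1098 (0.14, 0.021 to 0.27). GATC, a partner of GATB in the same amidotransferase, had 3340 and 2822 counts (-0.13, -0.20 to -0.053). After the fit TUFM stood at 0.048, and at 0.00038 with the longest transcript, so its change was not stable, while GATB stood at 0.15 and GATC at -0.14, or at 0.21 and -0.080 with the longest transcript.

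**Figure D5:**
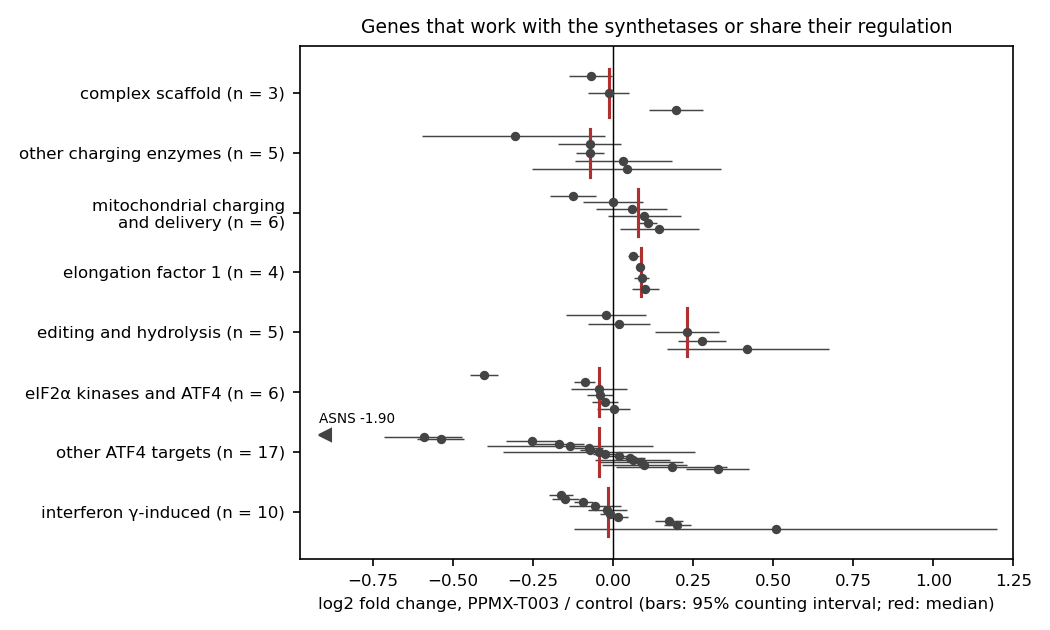
Log2 fold change (x axis) of genes that work with the synthetases or share their regulation, by list (y axis, with the number of tested genes), with points for genes, bars for the 95% counting interval, red lines for the median of each list and an arrowhead for ASNS without its readthrough gene, beyond the axis at -1.90. All 4 elongation factor 1 genes lie above 0, and other ATF4 targets spread to both sides.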

How the data were processed

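RNA of 2 dishes of NK92 cells was sequenced, with 1 library per condition. According to the paper's methods and the submitters' processing notes, the authors trimmed reads with Trimmomatic 0.38, mapped them with HISAT2 2.2.0 to build hg38, counted them with StringTie 2.1.3b and named edgeR 3.17 for the comparison. Whether the counting used strand is not given in the sources used here. The deposited counts are unscaled read counts per gene, written with commas between groups of digits and therefore recorded under a general unit. The deposited TPM columns hold whole numbers only, taken as the authors' rounding, and were treated as a score; the deposited FPKM values were not used. Counts were scaled by TMM (30% of log ratios and 5% of levels trimmed), and log2 CPM ratios with a prior count of 2 were computed in Python 3.11.15 (numpy 2.4.6, pandas 2.3.3, scipy 1.17.1), with plots in matplotlib 3.10.9. No count model was fitted. Intervals are 95% Clopper-Pearson intervals on the exposed share of a gene's reads. Length and GC content came from GENCODE 29 (87.5% of tested genes and all 35 members). They were medians over coding transcripts, or over all transcripts of a gene without a coding one. The longest transcript was picked among all types, coding or not. These values entered a robust linear fit in statsmodels 0.14.6 over genes with at least 200 counts. The interval step was tested on simulated data, and no value from that test is used here. Members and lists were chosen with earlier results of these data known. By rule, members past 1.2-fold and the 3 highest and 3 lowest of each compartment by the interval bound nearest to 0 were given in full, companion genes by the 2 changed most each way, and ATF4, EIF2AK1, EIF2AK4, SLC7A5 and SLC3A2 always. Other genes were named after their values were seen.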

Additional observations from a re-analysis of the deposited data

How the results depend on the processing

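No paired analysis was possible because only 1 library stands for each condition, which likewise left no replicate to leave out. The cytosolic median stayed negative and the mitochondrial median positive under scaling by library size, the median of ratios or the upper quartile. The same held with prior counts of 0.5 or 5. Count minimums of 1 and 200 could not change these medians, because every member had at least 876 summed counts. The summed cytosolic change was -0.053 under the median of ratios and -0.032 under the upper quartile. On deposited TPM with a pseudocount of 1, where genes with at least 5000 counts sat lower by a median difference of -0.054, the mitochondrial median was 0, and the medians of ATF4 targets and of complex members were both -0.12. After removal of the fit on length and GC content, the LAT1-substrate median was -0.0092 (-0.058 with the longest transcript), EPRS1 reversed to 0.023 and FARSB to 0.053. With the longest transcript, chosen after seeing the data, they were -0.0086 and 0.0014, GARS1 and VARS1 were -0.094 and -0.14, and the cytosolic gene lay below its partner in 8 of 13 pairs, against 11 with the median transcript and 9 without the fit. ASNS summed with its readthrough gene, also added later, reversed to 0.25. Genes at least 1.2-fold higher numbered 1661, and 3937 with a minimum of 1 count, 595 with 200, 45 with 5000 (added after seeing the data), 926 on TPM, 977 after the fit and 961 with the longest transcript. Genes at least 1.2-fold lower numbered 1700, and 3840, 740 and 171 with these minimums, 1754 on TPM, 1140 after the fit and 1149 with the longest transcript. At 1.5-fold there were 538 higher and 525 lower. Minimums and thresholds act by the number of genes that can pass; for the other differences the cause was not tested. Depth limits FARS2, WARS2 and PARS2 most.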

Other observations

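Enzymes that remove wrong amino acids from tRNA or free tRNA from stalled peptides form a small list beside the synthetases. Of 5 such genes, 3 had intervals above 0 and 0 below, with a median log2 fold change of 0.23. Intervals lay above 0 for 21.8% and below 0 for 23.9% of all genes tested. For genes with 800 to 10000 counts these shares were 24.6% and 28.5%. After removal of a fit on the length and GC content of transcripts the median of the 5 genes was 0.17, or 0.11 with the longest transcript. DTD1, a deacylase that removes D-amino acids from tRNA, had 2724 counts in the control and 3046 with PPMX-T003 (0.28, 0.20 to 0.35). PTRHD1, listed among peptidyl-tRNA hydrolases, had 235 and 290 counts (0.42, 0.17 to 0.68). AARSD1, a homologue of the alanyl editing domain, had 1558 and 1684 counts (0.23, 0.13 to 0.33). DTD2 and PTRH2 stood at -0.022 and 0.019 with intervals that held 0.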
